A study of Mus musculus with 21 samples.

Results

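RBM10 is an RNA-binding protein, and individual-nucleotide crosslinking and immunoprecipitation (iCLIP) maps the bases it touches: ultraviolet light joins protein to RNA, the protein is pulled down, and the crosslinked base is read from the place where the copied DNA stops. The positions described here were selected on the crosslink counts of the RBM10 libraries themselves: they are the nucleotides (chromosome, position and strand) that were listed with at least 1 crosslink in each of the 4 RBM10 libraries. There were 27660 of them, 0.627% of the 4413113 positions listed in any RBM10 library and part of 6182181 positions listed in any of the 8 iCLIP libraries. The 8 libraries came from mandibular MEPA cells, a mouse embryonic pharyngeal arch line made from 11.5 d.p.c. embryos of CD1 females and an Immortomouse male, grown at 33 °C with interferon at 100 U/ml and exposed to ultraviolet light of 254 nm at 400 mJ/cm2. RBM10 libraries 1 to 4 used an antibody against RBM10 that binds both of its mouse isoforms, and IgG libraries 1 to 4 used rabbit IgG, with 1 control for each replicate. RNA-seq was made from polyA+ RNA of 4 mandibular RBM10 knockout lines (KO1 and KO2 with a deletion in exon 3, KO3 and KO4 with one in exon 9), 3 samples of wild-type mandibular cells, 3 of the male ES line Rbm10Gt(CSI176)Byg, a gene trap, and 3 of its parent E14Tg2a.4. The ES knockout is 1 line sampled 3 times, so its tests compare 2 lines.

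The wild-type mandibular cells expressed 6 of 7 mesenchyme markers at 1 TPM (transcripts per 1000000) or more, with a summed level of 3564 to 3824 TPM, while 0 of 5 epithelial markers reached 1 TPM and leukocyte, skeletal muscle and neural markers were listed at 0. Crosslinks numbered 1114788, 2847066, 2845634 and 774816 in RBM10 libraries 1 to 4 and 965090, 2214515, 103017 and 157986 in their controls. Antibody and sequencing lane cannot be told apart, since each antibody had its own lane.

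As background, introns are removed by the spliceosome, which reads the 5' splice site at the start of an intron and, near its end, the branch point, a pyrimidine-rich tract and the 3' splice site. RBM10 binds RNA through RNA recognition motifs and zinc fingers and is known as a regulator of alternative splicing, most often as a repressor of exon inclusion. U12 is a small nuclear RNA of the minor spliceosome, which removes a rare class of introns.

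Windows of 60 bases around 7 of the positions with high counts are given as examples and are not typical sites. They were taken from the mm9 genome and are written as DNA, 5' to 3' on the strand of the RNA, with every position listed in all 4 RBM10 libraries in capitals. The first 4 are the strongest intronic positions near splice sites in genes with many such positions, and the last 3 hold some of the highest counts of all. A window of Col1a1, picked by the same rule as the first 4, is not shown. Its strongest base near a 3' splice site was a U.
Col1a2 intron (chr6:4470494-4470553, + strand): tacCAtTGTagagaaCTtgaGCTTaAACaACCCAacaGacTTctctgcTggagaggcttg
Thbs1 intron (chr2:117938600-117938659, + strand): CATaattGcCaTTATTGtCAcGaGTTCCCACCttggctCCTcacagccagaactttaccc
Nlrc5 intron (chr8:96998440-96998499, + strand): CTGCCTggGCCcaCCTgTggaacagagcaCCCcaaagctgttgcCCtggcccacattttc
Flna intron (chrX:71482662-71482721, - strand): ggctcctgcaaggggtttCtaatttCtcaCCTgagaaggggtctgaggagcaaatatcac
U12 snRNA gene (chr15:82980161-82980220, + strand): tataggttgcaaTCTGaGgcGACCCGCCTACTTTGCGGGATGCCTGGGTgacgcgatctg
Y RNA gene (chr6:47738087-47738146, - strand): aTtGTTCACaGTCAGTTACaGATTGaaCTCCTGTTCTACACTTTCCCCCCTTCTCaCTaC
chromosome 17 stretch (chr17:39985013-39985072, + strand): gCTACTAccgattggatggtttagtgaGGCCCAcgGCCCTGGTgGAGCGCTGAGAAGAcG

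In the collagen intron of Col1a2 (type I collagen alpha 2 chain) the capitals lay in short runs, and the highest base, a C at 4470524, was 72 nt upstream of the 3' splice site. It held 201, 280, 1202 and 247 crosslinks in RBM10 libraries 1 to 4 and 4, 1, 0 and 0 in the IgG libraries. In Thbs1 (thrombospondin 1, a matrix glycoprotein) the highest base near a 3' splice site, 76 nt upstream of it, held 20, 57, 205 and 23 against 5, 0, 0 and 0. In Nlrc5 (an activator of MHC class I genes, typed as a lincRNA in the annotation) the base 62 nt upstream of a 3' splice site held 17, 28, 88 and 19 against 0 in each IgG library. The counts of these bases in the RBM10 libraries were all above those in the IgG libraries, as the choice of positions and of the strongest base favours, so they are a description. In Flna (filamin A, an actin crosslinker) the highest base near a 5' splice site lay 69 nt downstream of it and held 15, 26, 165 and 16 against 2, 0, 0 and 0. Each of these windows held CC pairs among its capitals, but many capitals, most of all in Col1a2 and Thbs1, were outside such pairs. Of all intronic positions, 65.0% were part of a CC pair.

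Presence in all 4 libraries was a steep selection. Of the positions in RBM10 libraries, 4023868 were listed in 1 library, 290980 in 2, 70605 in 3 and 27660 in all 4. Just outside the threshold, positions listed in 3 libraries held a median of 5 RBM10 crosslinks in all, and just inside it the median was 15, with 619 positions (2.24%) at the minimum of 1 crosslink in each library. At least 2 crosslinks in each library were held by 10580 positions (38.2%), at least 10 by 1298 and at least 100 by 113. The smallest library set much of the limit: 52.3% of the positions listed in exactly 3 libraries lacked RBM10 library 4 and 29.5% lacked library 1, against 12.4% for library 2 and 5.82% for library 3. The positions took 19.7%, 19.8%, 14.0% and 25.1% of the crosslinks of RBM10 libraries 1 to 4. A few bases carried much of this, since the 10 highest positions of a library held 6.84%, 8.43%, 7.84% and 25.4% of its crosslinks at these positions. They formed 20431 runs of adjacent bases, of which 16385 were lone bases and the longest spanned 50 nt. With gaps of up to 30 nt allowed, 51.4% of the positions lay in groups of 3 or more.

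IgG counts at the same positions divided the set. No IgG crosslink was listed at 18070 positions (65.3%), while 3234 were listed in 1 IgG library, 2330 in 2, 1872 in 3 and 2154 (7.79%) in all 4. The positions nonetheless took 22.4%, 21.7%, 24.5% and 31.4% of the crosslinks of IgG libraries 1 to 4, no less than in the RBM10 libraries. Of the 2844 positions listed in all 4 IgG libraries, 2154 (75.7%) were in all 4 RBM10 libraries as well. The depth of the IgG libraries limits the first count. There 3 crosslinks equal 3.11 and 1.35 CPM (crosslinks per 1000000 in the library) in IgG libraries 1 and 2 but 29.1 and 19.0 CPM in libraries 3 and 4. In the RBM10 libraries 3 crosslinks equal 1.05 to 3.87 CPM, and the median count at these positions was 2 to 5. A typical position could thus have the same level in IgG libraries 3 and 4 and not be listed. Listing in IgG also went with the RBM10 count. The median was 12 RBM10 crosslinks in all at positions without IgG crosslinks, 22 with 1 to 3 IgG libraries and 108.5 with all 4. The part of count level in the classes below was not tested. Moving every position 1000 nt up- and downstream lowered the IgG count from 215721 to 20874, from 479751 to 56582, from 25219 to 2538 and from 49661 to 3101. The log2 ratio was 3.44 ± 0.39 (SD, n = 4 IgG libraries) and was above 0 in 4 of 4 libraries, with p = 0.13 in a 2-sided exact sign-flip test, the smallest p that 4 libraries allow. Intergenic crosslinks made up 140389 of the 215721 in IgG library 1, and the ratio differed between classes, from 3.24- to 3.83-fold in noncoding exons and 6.28- to 14.3-fold outside genes to 247- to 456-fold in small RNA genes, which a shift of 1000 nt leaves.

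The genomic class of a position went with its IgG count. By the GENCODE annotation of mm9, read on the same strand, 59.0% of the positions were intronic, 14.2% in noncoding exons, 6.71% in small RNA genes, 2.30% in 3' UTRs, 1.298% in coding sequence, 1.25% mitochondrial, 0.71% in 5' UTRs and 14.5% outside genes on that strand. Among the 18070 positions without IgG crosslinks, 78.3% were intronic and 2.66% intergenic, whereas among the 2154 listed in all 4 IgG libraries 5.76% were intronic, 61.3% intergenic and 23.2% in small RNA genes. Seen from the classes, 86.6% of the 16331 intronic positions, 77.0% of the 5' UTR positions and 64.8% of the noncoding exon positions had no IgG crosslink, against 7.11% in small RNA genes, 11.9% of intergenic and 0.29% of mitochondrial positions. In the noncoding exon class, 75.04% of the 3915 positions lay inside an intron of another transcript of the annotation, and 1680 of those 2938 were within 100 nt upstream of a 3' splice site. Which transcript such crosslinks came from was not tested. Malat1, a long noncoding RNA, held 1018 positions of the class, so some of those 2938 were in it.

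**Figure D1:**
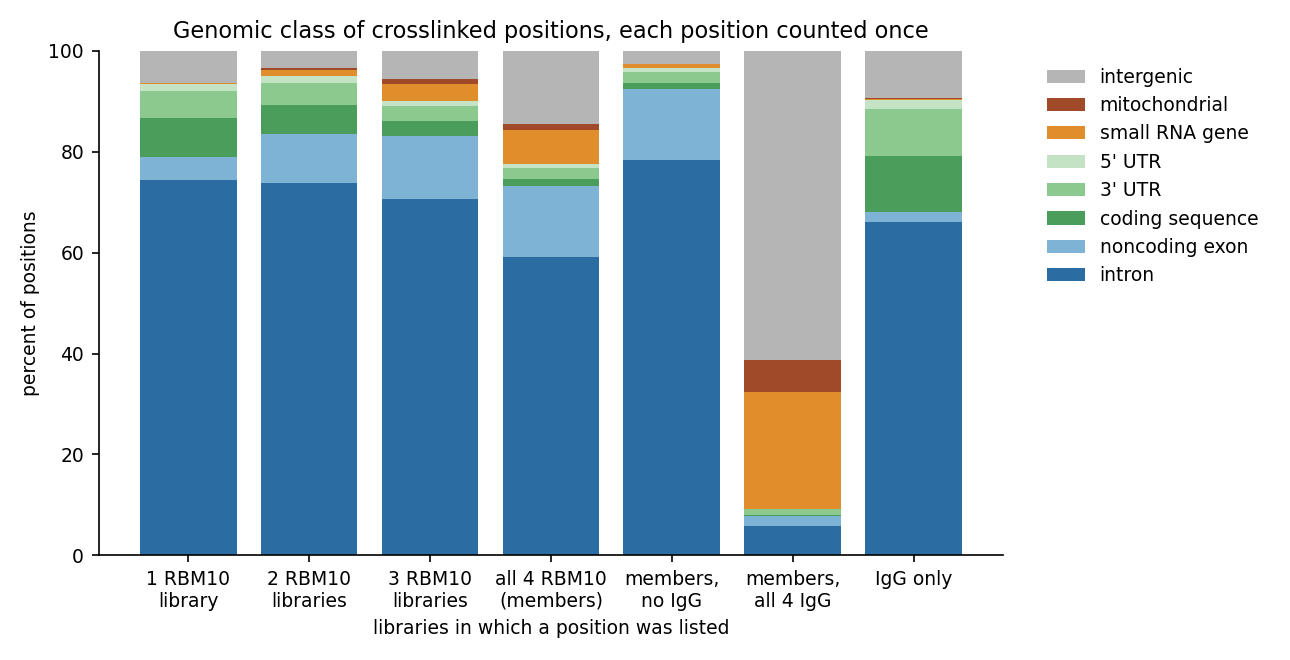
Genomic class, in percent of positions with each position counted once, for positions listed in 1, 2, 3 or all 4 RBM10 libraries, for those in all 4 RBM10 libraries with no IgG crosslink or with crosslinks in all 4 IgG libraries, and for positions listed in IgG libraries only. The intronic share was 78.3% where IgG crosslinks were absent and 5.76% where all 4 IgG libraries had them.

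Compared with the other positions of the same RBM10 library, each counted once, the positions in all 4 libraries were less often intronic (59.0% against 74.2% ± 4.19) and less often in coding sequence (1.298% against 7.01% ± 2.07). They were more often in noncoding exons (14.2% against 5.76% ± 1.009), in small RNA genes (6.71% against 0.51% ± 0.17) and outside genes (14.5% against 6.14% ± 1.16; SD, n = 4 libraries throughout). Weighted by crosslinks, 41.4% ± 9.33 of the crosslinks at these positions were intergenic against 6.19% ± 1.52 elsewhere, 20.5% ± 6.07 were in small RNA genes against 0.98% ± 0.61, and 24.8% ± 9.72 were intronic against 73.4% ± 5.23, all wider apart than when counted once. Noncoding exons were closer than when counted once, at 8.72% ± 3.36 against 6.25% ± 1.096, and coding sequence was at 0.43% ± 0.105 against 6.77% ± 2.06. Each of these held in 4 of 4 libraries, and none could pass the test, because the 2-sided exact sign-flip p over 4 libraries is 0.13 at the least (adjusted p = 0.135 over 14 weighted shares and 0.13 over the shares counted once). The positions are the same in every library by the choice. Agreement between libraries is therefore partly built in, here and for the splice site and base shares below.

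Intronic positions crowded upstream of 3' splice sites over a broad range of distances, while 5146 (31.5%) lay farther than 100 nt from both kinds of splice site. Of the 16331, 9714 (59.5%) lay within 100 nt upstream of a 3' splice site, upstream of 5616 distinct sites in 3062 genes. That share was larger the more RBM10 libraries listed a position, with 15.0% of intronic positions listed in 1 library, 38.3% in 2 and 51.7% in 3, and was 2.61% where only IgG libraries listed a position. The most frequent distance was 58 nt, with 323 positions, and among the 9714 positions within 100 nt the quartiles were 59 and 81 nt and the median 69 nt. Distances of 61 to 70 nt held 15.7% of all 16331 intronic positions, 51 to 60 nt 14.1% and 71 to 80 nt 11.9%, but 41 to 50 nt only 1.94%. The last 40 nt before the 3' splice site, where the pyrimidine tract lies, held 112 positions, 1.15% of those within 100 nt, against 15.8% for positions listed in 1 RBM10 library and 55.3% for those in IgG libraries only.

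The band was also present by crosslinks in each RBM10 library. All 4 libraries were measured at the same positions, which had to be in every library, so their agreement is partly built in and is a description. Of the intronic crosslinks at these positions, 42.0%, 39.8%, 47.0% and 43.2% fell 41 to 80 nt upstream of a 3' splice site in libraries 1 to 4, while elsewhere in the same libraries the share was 11.6%, 10.4%, 17.6% and 15.9%. Within 100 nt the share was 59.4% ± 3.61 against 22.1% ± 4.91, higher in 4 of 4 libraries (exact sign-flip p = 0.13, adjusted 0.135). In the IgG libraries, the 41 to 80 nt band held 10.4%, 2.23%, 6.66% and 3.17% of the intronic crosslinks at these positions. IgG library 1 was thus the highest of the controls and still below every RBM10 library. Most of the 3' splice sites had few positions: 3677 had 1 and 252 had at least 5, with a highest number of 33.

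**Figure D2:**
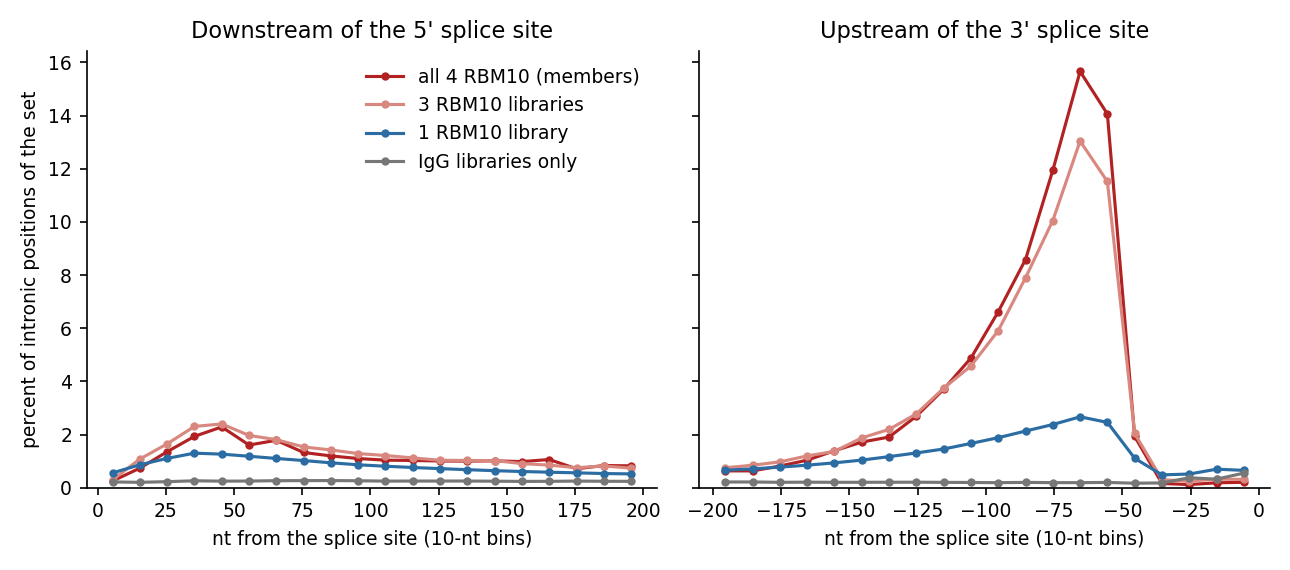
Distance of intronic positions from the nearest 5' splice site (left) and 3' splice site (right), in 10-nt bins, as percent of the intronic positions of each set: listed in all 4, in 3 or in 1 RBM10 library, or in IgG libraries only. The right panel peaks at 15.7% in the bin 61 to 70 nt upstream for positions in all 4 libraries and the left at 2.29% in the bin 41 to 50 nt downstream.

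Near 5' splice sites the crowding was smaller. There were 2223 intronic positions (13.6%) within 100 nt downstream of a 5' splice site, 752 of which were also within 100 nt of a 3' splice site, and the first 10 nt held 42. The fullest bin, 41 to 50 nt downstream, held 2.29% of the intronic positions. Against other intronic crosslinks of the same library, the share within 100 nt was 11.9% ± 1.00 against 11.7% ± 2.25, higher in 2 of 4 libraries (exact sign-flip p = 1.0), a difference smaller than the spread between libraries. Counted once it was 13.6% against 11.45% ± 2.305, higher in 4 of 4 libraries (exact sign-flip p = 0.13). Introns up to 200 nt long held 1200 (7.35%) of the intronic positions, and the median intron length was 1195 nt.

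The base at the position was mostly a cytosine. Of the intronic positions 75.2% were C, 17.9% U, 5.41% G and 1.41% A, while 100 nt upstream of them C made up 22.5% and 100 nt downstream 23.6%. The share of C was also larger with recurrence, at 31.5% of intronic positions listed in 1 RBM10 library, 51.7% in 2 and 65.3% in 3, and it was 13.3% at those listed in IgG libraries only, where 57.8% were U. The next base was C in 52.01% of cases and the base before in 41.3%, so that 65.0% of the intronic positions were part of a CC pair, against 4.93% in IgG libraries only. The 10 most frequent tetramers that start at the position all began with CC, led by CCUG (6.18%), CCAA (5.51%) and CCAG (5.46%). Together they covered 43.9% of the intronic positions, 11.5% of those listed in 1 RBM10 library and 1.93% of those in IgG libraries only. Near 3' splice sites (76.1% C), near 5' splice sites (78.0%) and farther from both (72.7%) the composition was alike within a few points.

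**Figure D3:**
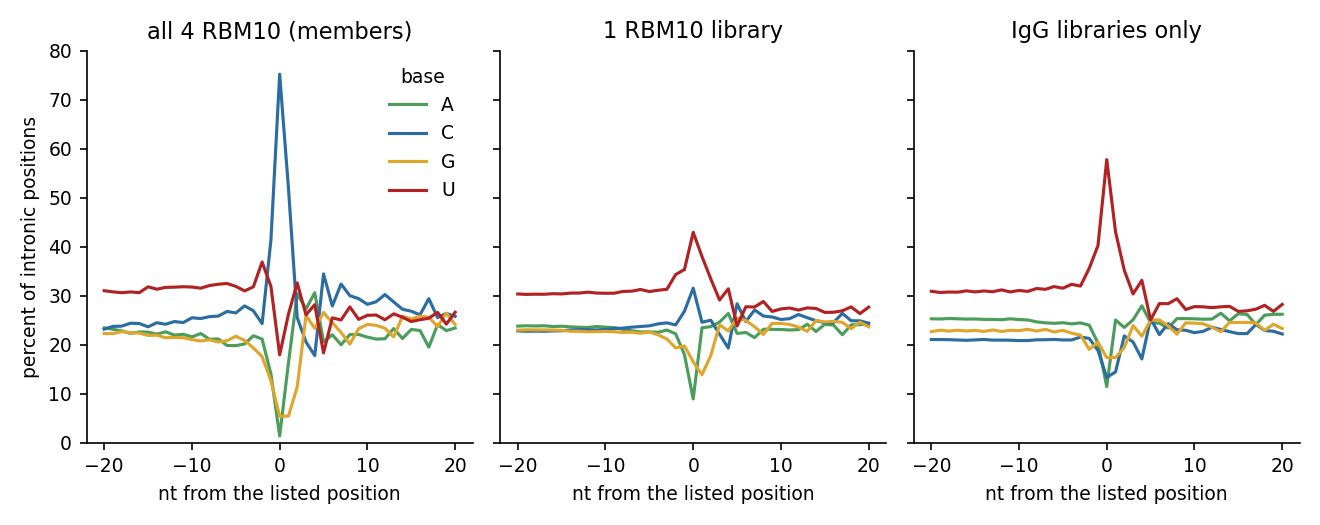
Base composition from 20 nt upstream to 20 nt downstream of intronic positions listed in all 4 RBM10 libraries, in 1 RBM10 library or in IgG libraries only, as percent of positions. At the listed position C reaches 75.2% in the left panel and 31.5% in the middle, while U reaches 57.8% in the right.

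The C preference differed between classes. C made up 56.8% of noncoding exon, 57.6% of coding and UTR, 28.6% of small RNA and 29.1% of intergenic positions, and 19.9% of the positions listed in all 4 IgG libraries. Over all classes the base was C in 61.3%, U in 24.1%, G in 9.61% and A in 5.01%. Against other positions of the same RBM10 library, each counted once, C was at 61.3% against 34.7% ± 5.58 and U at 24.1% against 40.5% ± 5.03 (SD, n = 4). Weighted by crosslinks, C was at 44.3% ± 9.84 against 36.2% ± 6.17 and U at 31.8% ± 5.33 against 39.9% ± 5.15, in the same direction in 4 of 4 libraries (exact sign-flip p = 0.13, adjusted 0.135). A went in opposite directions: 12.1% against 8.30% weighted, 5.01% against 8.73% counted once.

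Because a position had to be in every RBM10 library, its RBM10 count was part of the choice. For a test, each library was measured at positions chosen in the other 3, and its IgG partner at the same positions. The sets overlap, since each holds every position listed in all RBM10 libraries, and each RBM10 library helped to choose the sets of the others. The shares are therefore not independent, and a choice in RBM10 libraries alone can favour RBM10. The unpaired permutation p-values do not allow for this. These sets held 48520, 36400, 31771 and 64554 positions, of which the left-out RBM10 library listed 57.0%, 76.0%, 87.1% and 42.9% and its IgG partner 19.1%, 21.2%, 11.3% and 6.70%. Introns within 100 nt upstream of 3' splice sites took 2.35%, 1.71%, 3.44% and 3.68% of the RBM10 crosslinks and 0.19%, 0.034%, 0.095% and 0.077% of the IgG crosslinks. The groups did not overlap, and the means were 2.80% ± 0.92 and 0.099% ± 0.066 (SD, n = 4 each), 28.2-fold apart (2-sided exact permutation p = 0.0286, the smallest that 70 splits can give, adjusted p = 0.0381 over 8 classes). The same test passed for introns downstream of 5' splice sites (0.350% ± 0.134 against 0.042% ± 0.033, 8.24-fold), for noncoding exons (1.62% ± 0.33 against 0.367% ± 0.052, 4.43-fold) and for the remaining introns (1.52% ± 0.33 against 0.930% ± 0.189, 1.63-fold), each with an exact permutation p of 0.0286 and adjusted p = 0.0381.

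Other classes were higher in IgG or not separable. Intergenic positions took 8.22% ± 2.66 of the RBM10 and 18.6% ± 5.54 of the IgG crosslinks, and mitochondrial positions 0.583% ± 0.490 and 1.56% ± 0.29, both lower in RBM10 (exact permutation p = 0.0286, adjusted 0.0381, n = 4 each). Small RNA genes (4.22% ± 2.16 against 3.73% ± 0.60, exact permutation p = 0.771) and coding and UTR exons (0.329% ± 0.080 against 0.224% ± 0.086, p = 0.143) differed by less than the test could separate. Over all classes the share was 19.6% ± 4.52 in RBM10 and 25.6% ± 5.18 in IgG (exact permutation p = 0.171). Within the introns and exons of genes alone, a setting chosen after the data were seen, it was 8.15% ± 2.05 against 2.54% ± 0.70 (exact permutation p = 0.0286). With each RBM10 library blocked with its own IgG control, the exact sign-flip p was 0.13 for the 6 classes that passed (adjusted 0.143), the smallest that 4 pairs allow, and with each listed position counted once no class passed after adjustment (0.114 for the 3' splice site class).

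**Figure D4:**
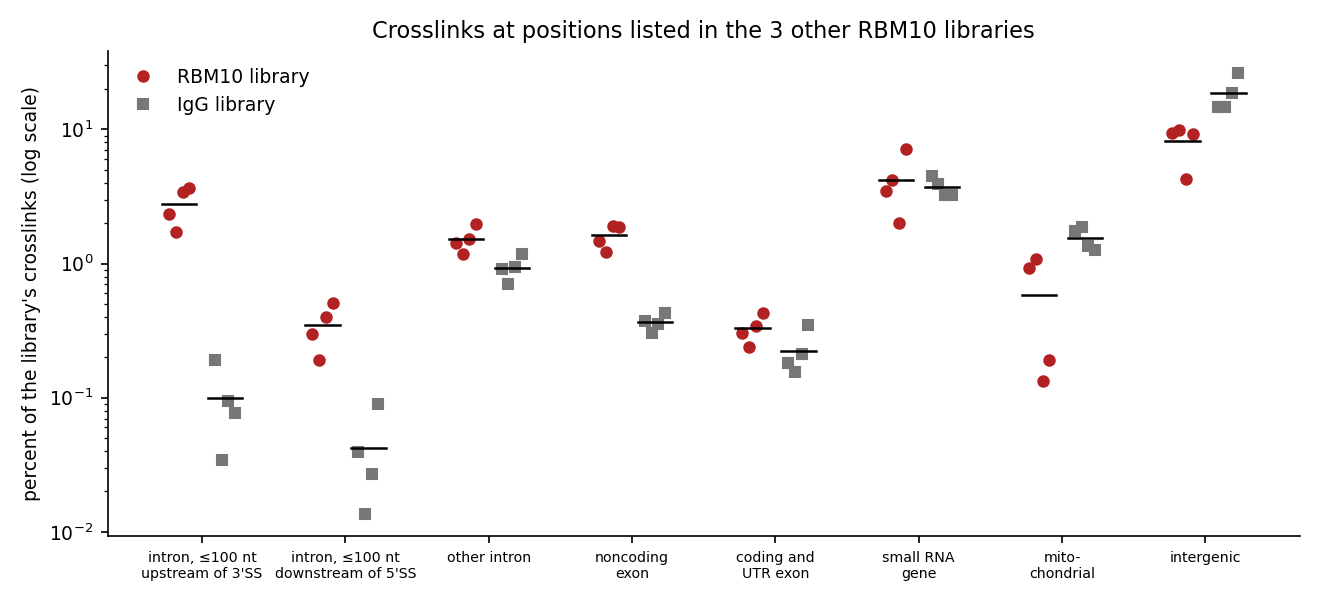
Percent of each library's crosslinks (log axis) at positions listed in the other 3 RBM10 libraries, by class, for the 4 RBM10 libraries (circles) and the 4 IgG libraries (squares), with the mean as a line. The groups do not overlap for the 3' and 5' splice site classes, remaining introns and noncoding exons, where RBM10 is higher, nor for mitochondrial and intergenic positions, where IgG is higher.

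The U12 gene on chromosome 15 (82980074 to 82980224, + strand, 151 nt) held the highest position of all. Its base 118, a C at 82980191, had 2653, 12432, 8619 and 17327 crosslinks in RBM10 libraries 1 to 4 and 212, 217, 22 and 92 in the IgG libraries. RBM10 library 4 stood far above the rest at 22363 CPM, where the other RBM10 libraries had 2380 to 4367 CPM, and the IgG mean was 278 ± 210 CPM. In all, 35 positions between bases 75 and 136 of U12 were listed in all 4 RBM10 libraries, with 0.743%, 1.09%, 0.777% and 4.75% of the crosslinks of the RBM10 libraries and 0.067%, 0.032%, 0.056% and 0.109% of those of the IgG libraries. These values, too, come from positions and a gene chosen for their RBM10 counts, and are a description. The single top base took 32.0%, 40.1%, 39.0% and 47.0% of the U12 crosslinks in the RBM10 libraries and 33.0%, 30.6%, 37.9% and 53.5% in the IgG libraries, so the shape along the RNA was similar while the level was not. The 9 listed proteins of the minor spliceosome, in which U12 acts, had 3 positions in total, 1 each in Zrsr2, Zcrb1 and Zmat5.

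**Figure D5:**
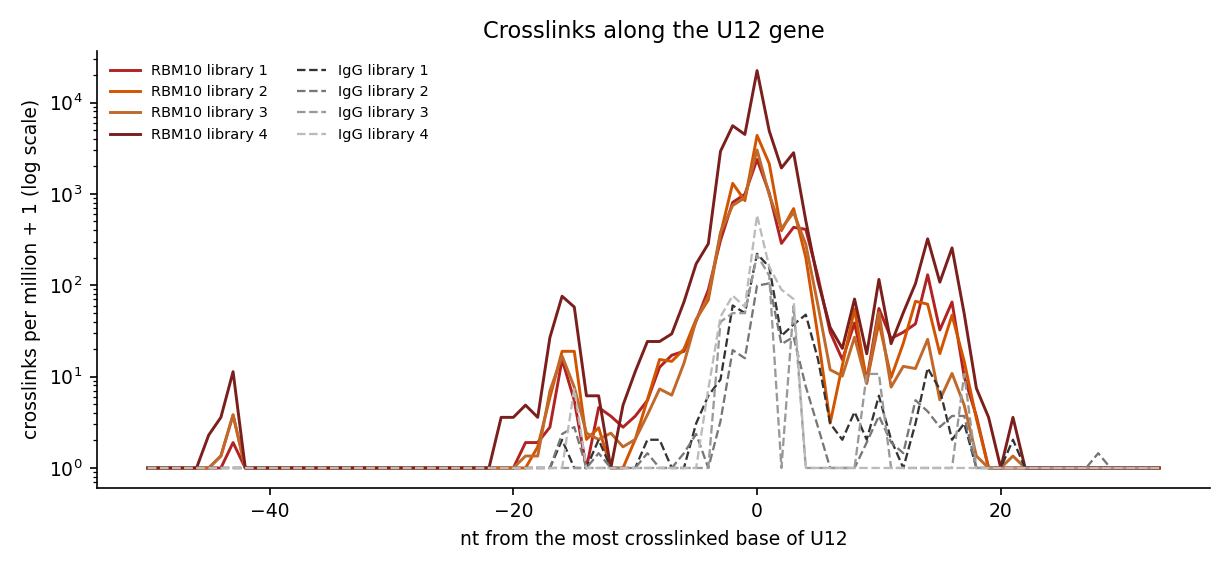
CPM plus 1 (log axis) along the U12 gene in each RBM10 library (solid) and IgG library (dashed), by distance from its most crosslinked base. The peak is at 22363 CPM in RBM10 library 4 and at 2380 to 4367 CPM in the other RBM10 libraries.

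The other small RNAs were mixed, and since their positions too were chosen on RBM10 counts, the values are a description. Small RNA genes held 1856 positions, 902 of them in 166 snoRNA genes, 412 in 52 snRNA genes and 394 in 9 genes typed misc_RNA, and reads from near-identical copies may be split between them, so single copies are uncertain. A Y RNA gene (chr6:47738068-47738179, - strand), which makes a small cytoplasmic RNA bound by the Ro protein, had 54 positions with 5147, 11100, 12302 and 4869 crosslinks in RBM10 and 2059, 4274, 113 and 200 in IgG. That is 4781 ± 1045 CPM in RBM10 and 1607 ± 503 in IgG (SD, n = 4 each). RNase_MRP, the RNA of an RNA-processing enzyme, had 108 positions, the most of any small RNA gene, and went the other way with 2377 ± 2111 CPM in RBM10 and 5005 ± 2889 in IgG. The snoRNA U3 (56 positions, 1563 ± 1386 and 4060 ± 2432 CPM) and 7SK (70 positions, 1948 ± 865 and 3559 ± 413), a regulator of transcription elongation, were also higher in IgG on average. AC027184.1 had 71 positions, with 854 ± 374 CPM in RBM10 and 1446 ± 483 in IgG. None of the positions in RNase_MRP, AC027184.1, U3, 7SK or the Y RNA gene was free of IgG crosslinks. The snRNA symbols that cover several copies gave 1241 ± 680 CPM for U5 against 1482 ± 294 in IgG, 1009 ± 725 for U4 against 780 ± 211, 554 ± 267 for U2 against 122 ± 37.0 and 190 ± 113 for U6 against 36.4 ± 30.65. U11, from 1 gene, had 198 ± 99.7 against 136 ± 10.4. U2 pairs with the branch point of the major introns, and U11 is the partner of U12 at minor introns.

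Outside annotated genes, 1482 of the 4022 intergenic positions lay in a stretch of 5788 nt on the + strand of chromosome 17 (39979941 to 39985728), where the annotation has no gene on that strand. Intergenic, here and above, means only that, so RNA genes missing from the annotation would be counted as intergenic. Which RNA these crosslinks came from was not tested. IgG crosslinks were listed at 1473 of them and in all 4 IgG libraries at 743. The stretch took 5.28%, 5.63%, 2.26% and 3.77% of the crosslinks of RBM10 libraries 1 to 4 and 8.37%, 9.02%, 7.96% and 7.58% of those of the IgG libraries, so the groups did not overlap and IgG was higher. Single bases outside annotated genes were named for high counts in all 4 RBM10 libraries. That choice favours RBM10 over IgG, so their values are a description. The C at 39985043 within the stretch held 1329, 2233, 2296 and 1640 crosslinks in RBM10 and 409, 466, 27 and 29 in IgG, which is 1225 ± 623 against 270 ± 108 CPM. The A at 90279797 on chromosome 3 (- strand) held 1469, 3551, 3178 and 1274 against 179, 388, 19 and 25. The U at 23039705 on chromosome 10 (+ strand) held 1261, 1646, 2122 and 11321 in RBM10 and 1362, 2256, 3336 and 19051 in IgG. Per library size, library 4 of each antibody was the highest there.

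Positions in genes had 4644 hosts, 4279 of them protein coding, out of 18097 genes with any RBM10 crosslink. A lone position was found in 1638 hosts (35.3%), while 500 hosts with at least 10 held 52.5% of the positions in genes. In 3151 hosts (67.9%) every position was free of IgG crosslinks. Hosts were mostly the well expressed genes: in wild-type mandibular cells 0.60% of protein-coding genes under 1 TPM were hosts, 20.3% of those at 1 to 10 TPM, 49.2% at 10 to 100 TPM and 63.2% at 100 TPM or more. Crosslink counts scale with RNA abundance as well as with binding, and the part of each in these counts was not tested.

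Of 14 listed nuclear long noncoding RNAs, 12 of them in the annotation, 6 were hosts, with a median of 1 position a gene, and 1018 of their 1225 positions were in Malat1. The CPM of a host is summed over positions that had to hold RBM10 crosslinks, so RBM10 values above those of IgG are favoured by the choice and are a description here and for the hosts that follow. Malat1, a nuclear speckle RNA, had the most positions of any gene, 1018, with 8373, 18981, 24715 and 5989 crosslinks in RBM10 and 2343, 4992, 272 and 379 in IgG, or 7648 ± 829 and 2430 ± 159 CPM. Only 128 of them were free of IgG crosslinks. Neat1, the scaffold RNA of paraspeckles, had 109 positions with 347 ± 56.7 against 59.3 ± 21.0 CPM.

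Matrix genes followed. Col1a2 had 681 positions, of which 511 were intronic, 251 of them within 100 nt upstream of 3' splice sites, and held 2798, 5362, 14110 and 3682 crosslinks in RBM10 and 257, 222, 17 and 32 in IgG. That is 3526 ± 1558 CPM against 184 ± 69.5. Thbs1 had 241 positions (86 near 3' splice sites, 1103 ± 463 against 96.5 ± 34.7 CPM). Col1a1, the other type I collagen chain, had 200 (95 near 3' and 85 near 5' splice sites, 635 ± 261 against 69.7 ± 42.5). Col5a1, a fibrillar collagen chain, had 42 positions, 30 of them near 3' splice sites, and Hspg2 (perlecan, a basement membrane proteoglycan) had 41, 28 of them there. Of 25 listed matrix genes 15 were hosts.

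Cytoskeletal and interferon-response genes were also hosts, with 164 of 475 and 210 of 448 positions in introns near 3' splice sites. Flna had 52 positions, 34 near 3' splice sites, with 195 ± 63.4 CPM in RBM10 and 2.59 ± 5.18 in IgG. Vim (vimentin) had 85 and Actb (beta-actin) 79, of which 51 were in noncoding exons. Myof (myoferlin, a membrane repair protein) had 39, 30 near 3' splice sites. Nlrc5 had 206 positions, 123 near 3' splice sites, with 618, 1049, 2271 and 617 crosslinks in RBM10 and 54, 12, 5 and 4 in IgG. Rnf213, a large ubiquitin ligase, had 122 positions, all intronic and 75 of them near 3' splice sites (346 ± 63.6 against 11 ± 11.8 CPM). Stat2, a transcription factor of the interferon response, had 39 positions. All 8 libraries came from cells grown with interferon, so its part in these levels cannot be told apart. Of 20 listed interferon-response genes 16 were hosts, and of 23 actin cytoskeleton genes 18. Over all protein-coding genes of at least 1 TPM, 4203 of 10496 (40.04%) were hosts and the median gene had 0 positions.

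Genes for RNA-binding proteins were often hosts. Hosts were 12 of 13 SR proteins (median 4 positions a gene), 19 of 24 hnRNP proteins (23 in the annotation, median 9), 10 of 17 RBM proteins (16 in the annotation), 14 of 17 factors of branch point and 3' splice site recognition, all 10 SR kinases and cyclins L, and all 13 DEAD box helicases (median 5). Beside these and the lists below stand 40.04% of protein-coding genes of at least 1 TPM and 63.2% of those at 100 TPM or more. The lists were not matched for expression. In several of these many positions were in exons, where distance to a 3' splice site was not counted even if another transcript has an intron there. Srsf3, a shuttling splicing factor, had 33 positions, 30 of them in noncoding exons. Srsf1 had 19, 18 of them in coding sequence or UTRs. Hnrnpa2b1, a splicing repressor and RNA transport factor, had 78, 64 of them in coding sequence or UTRs. Ddx5, a helicase, had 73, 49 in noncoding exons and 21 in introns near 3' splice sites. Leng8 and Pabpn1, the nuclear poly(A)-binding protein, had 30 and 28 positions in coding sequence or UTRs. Pcbp2, a protein that itself binds poly(C) RNA, had 37, all intronic and 21 near 3' splice sites. U2af2, the subunit that reads the pyrimidine tract, had 20, and Sf3b3, a subunit of the U2 particle, 32. Rbm10 itself had 3 intronic positions, 2 of them near a 3' splice site, and its paralogue Rbm5 had 17, 9 of them there. Of 7 reported RBM10 splicing targets 4 were hosts.

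Ribosomal protein genes were hosts in 36 of 39 cases, led by Rpl3 with 93 intronic positions, 53 of them near 3' splice sites (683 ± 184 against 112 ± 10.98 CPM). Cell cycle genes were hosts in 24 of 30, with Top2a (DNA topoisomerase II alpha) at 55 positions and Tacc3 (a spindle protein) at 26, 22 of these near 3' splice sites. Pharyngeal arch patterning genes were hosts in 2 of 22, Prrx1 with 6 positions and Twist2 with 1. Of these 22, 10 passed the filter of 1 TPM in mandibular cells, against 39 of 39 ribosomal protein genes. The mitochondrial ribosomal RNAs mt-Rnr2 and mt-Rnr1 had 145 and 96 positions with 2326 ± 1814 and 708 ± 504 CPM in RBM10 and 6012 ± 1137 and 1685 ± 405 in IgG, the reverse of the intronic hosts.

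RNA-seq of knockout cells gave a readout that the choice of positions did not use. Rbm10 itself was at 23.2, 19.7, 7.20 and 3.49 TPM in mandibular KO1 to KO4 and at 21.4, 23.2 and 23.7 TPM in the wild type, so the 2 lines with an exon 3 deletion overlapped the wild type; a small deletion need not lower the RNA, so this does not check those labels. In ES cells it was at 4.27, 3.63 and 4.25 TPM in the knockout and at 32.4, 33.5 and 32.2 in the wild type. Among mandibular genes limma called 2 of 12090 (0.0165%) at an adjusted p under 0.05, Eif2s3y and Gm773, both lower in the knockout and neither a host. They are named although the rule for named genes did not pick them. Eif2s3y was at 0 TPM in all 4 knockout lines and at 4.94, 3.13 and 3.39 TPM in the wild type. Whether the knockout lines differ from the wild type in more than Rbm10 was not tested. Of 4362 host genes tested 0 were called, and 245 (5.62%) had an unadjusted p under 0.05, against 829 (6.86%) of all genes. Col1a2 was at 379 to 1848 TPM in the 4 knockout lines and 876 to 1056 TPM in the wild type, and Thbs1 at 63.6 to 478 against 321 to 332. The knockout lines spread more widely than the wild-type samples for these matrix hosts. Nlrc5 stood at 22.6 to 36.6 against 26.4 to 27.3 TPM.

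In ES cells, which are not the cells whose crosslinks were mapped, limma called 519 of 4191 host genes (12.4%; 356 higher and 163 lower in the knockout), against a background of 1576 of 12860 genes (12.3%; 7.53% higher and 4.73% lower). The host genes' share was near the background, so it says nothing particular about hosts. The first after Rbm10 were Pfkp, a phosphofructokinase, at 58.7, 52.8 and 54.8 TPM in the knockout against 151, 154 and 131 TPM (log2 difference -1.37 ± 0.09 SE, limma adjusted p = 0.00279), and Ift20, a ciliary transport protein, at 61.4, 62.1 and 66.9 against 31.2, 30.4 and 30.8 TPM (1.02 ± 0.08, adjusted p = 0.00353). Col4a1 (a basement membrane collagen), Odc1 (ornithine decarboxylase, of polyamine synthesis) and BC016423 were higher in the knockout by 1.24, 1.18 and 1.36 on the log2 scale. Lgals3 (galectin 3), Ncam1 (a cell adhesion molecule), Zdhhc20 (a palmitoyltransferase) and 9030624J02Rik were lower, at -1.60, -1.50, -0.95 and -0.97. These 10 genes had 1 to 10 positions each. The ES count rests on single libraries: it was 3985 without KO replicate 1, 61 and 49 without KO replicates 2 and 3, and 21 and 49 without wild-type replicates 1 and 2 (host genes 1353, 13, 11, 4 and 10). It was 422 (hosts 111) with the replicate number as a block.

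Among the hosts of the gene lists, limma called 4 of 18 actin cytoskeleton, 3 of 19 hnRNP, 3 of 10 SR kinase and cyclin L, 2 of 14 branch point and 3' splice site, 2 of 7 matrix, 2 of 24 cell cycle and 1 of 12 SR protein genes higher in the ES knockout and none of these lower, beside the 7.53% called higher and 4.73% called lower over all genes. The interferon-response hosts had 2 of 12 higher and 1 lower, and the RBM hosts 2 of 10 higher and 1 lower. The ribosomal protein hosts had 1 of 36 lower, the long noncoding RNA hosts 1 of 4 lower and the reported targets 1 of 4 lower, with none higher. Of 13 DEAD box hosts 0 were called and 6 had an unadjusted p under 0.05, and of 3 minor spliceosome hosts 0 were called and 0 had such a p. Over all tested genes of a list, hosts or not, the median log2 difference was 0.43 for the actin list, 0.15 for the hnRNP list and -0.21 for the ribosomal protein list, against 0.03 over all genes tested.

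Cassette exons with a position in them or within 100 nt were examined next. Inclusion was computed from transcript TPM as the percentage of the TPM of all transcripts spanning an exon that comes from transcripts holding it. In mandibular cells limma called 0 of 4136 exons (0%), and 0 of the 283 beside a position; 25 of these (8.83%) had an unadjusted p under 0.05, against 372 (8.99%) of all. In ES cells it called 11 of 3831 (0.287%; 7 higher, 0.183%, and 4 lower, 0.104%) with an adjusted p under 0.05 and a difference of at least 10 points. Of the 229 exons beside a position, 3 (1.31%) were among them, all more included in the knockout and all with the position in the intron upstream. Most of the 229 (163) had a position in the 100 nt upstream, so that trait was common among them. An unadjusted p under 0.05 was found for 35 of the 229 (15.3%), close to the 545 (14.2%) of all exons. The 3 calls are therefore too few to say that exons beside positions change more often. The 100 nt of intron before these exons, and before an exon of Mfge8 that fell just short, are shown on mm9 with the recurrent positions in capitals; these windows were chosen after their values were seen.
Rbm26 (chr14:105538380-105538479, - strand): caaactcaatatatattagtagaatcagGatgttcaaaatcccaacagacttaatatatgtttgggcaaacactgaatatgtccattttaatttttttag
Tmem164 (chrX:139186483-139186582, + strand): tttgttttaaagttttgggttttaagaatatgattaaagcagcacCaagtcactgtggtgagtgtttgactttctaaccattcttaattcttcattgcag
Acly (chr11:100364504-100364603, - strand): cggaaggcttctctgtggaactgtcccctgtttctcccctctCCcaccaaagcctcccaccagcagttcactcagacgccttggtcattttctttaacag
Mfge8 (chr7:86288275-86288374, - strand): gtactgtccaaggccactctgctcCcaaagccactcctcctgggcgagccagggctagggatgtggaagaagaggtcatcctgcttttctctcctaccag

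The Rbm26 exon (a 72-nt exon of an RNA-binding protein gene) was included at 79.0%, 81.4% and 81.8% in the ES knockout and at 44.8%, 50.4% and 43.4% in the wild type, a difference of 34.5 points ± 2.70 SE (limma adjusted p = 0.0203). The groups did not overlap. Its recurrent base, a G 72 nt upstream of the exon, held 2, 2, 12 and 3 crosslinks in RBM10 and 0 in each IgG library. In mandibular cells the same exon was at 86.6% ± 4.19 in 4 knockout lines and 78.5% ± 4.07 in 3 wild-type samples (difference 8.14 points, limma adjusted p = 0.462).

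The Tmem164 exon (50 nt, in a gene for a membrane protein) was at 100%, 94.2% and 93.8% in the ES knockout and at 54.8%, 42.3% and 56.6% in the wild type (44.8 points ± 4.41 SE, limma adjusted p = 0.0322). Its C 55 nt upstream held 4, 6, 4 and 1 crosslinks in RBM10 and 0 in IgG. In mandibular cells the difference was 6.33 points (limma adjusted p = 0.813) and the groups overlapped.

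The Acly exon (30 nt, in the gene of ATP citrate lyase, which makes cytosolic acetyl-CoA) was at 82.8%, 73.2% and 74.7% against 48.7%, 48.5% and 52.5% in ES cells (27.0 points ± 3.27 SE, limma adjusted p = 0.0494). It had neighbouring recurrent Cs 57 and 58 nt upstream, with 2, 3, 13 and 2 and with 1, 6, 8 and 9 crosslinks in RBM10 and 0 in IgG. In mandibular cells it was at 52.4% ± 1.51 against 50.6% ± 1.38.

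The Mfge8 exon (111 nt, in the gene of a milk fat globule protein that marks dying cells for uptake) had values of 79.5%, 71.3% and 69.8% against 51.2%, 44.8% and 51.5% in ES cells (24.4 points ± 3.57 SE, limma adjusted p = 0.0576). In mandibular cells they were 26.4%, 27.4%, 42.7% and 39.0% against 12.2%, 13.0% and 10.9% (21.8 points, limma adjusted p = 0.208). The groups did not overlap in either cell type, and neither difference passed the test. Its C 76 nt upstream held 2, 4, 5 and 1 crosslinks in RBM10 and 0 in IgG. The 3 called exons rest on all 6 ES libraries: 1 exon beside a position was called without KO replicate 1 or without wild-type replicate 2, and 0 without any other library or with the replicate number as a block. Inclusion here comes from estimated transcript levels, not from junction reads.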

How the data were processed

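Crosslinked nucleotides were counted in 4 RBM10 and 4 IgG iCLIP libraries of mandibular MEPA cells. The authors deposited, for each library, crosslink counts per nucleotide and strand on mm9, per the labels' protocols; how reads were aligned, whether PCR duplicates were collapsed and how reads of repeated sequence were placed is not given in the sources used here. The authors also deposited transcript TPM tables for the knockout and wild-type cells, with no depth; the submitters' processing notes name mm9 and mm10 without saying which file each belongs to. Intervals were read as 0-based starts and joined by chromosome, position and strand. A position took the first class that applied among mitochondrial genome, small RNA gene, coding sequence, UTRs, noncoding exon, intron and intergenic in GENCODE vM1 on its strand, and distances were to the nearest annotated splice sites. No per-sample column was left unused.

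Tests were exact permutations over libraries (70 splits of 4 against 4) or exact sign flips of 4, with Benjamini-Hochberg adjustment. Intervals from counts (95%, Wilson) on the shares of crosslinks were at most 0.263 points either way and, like the floor of 3 counts, cover counting error only, since crosslinks are not shown to be independent molecules. Gene TPM were sums over 84877 of 100249 transcripts whose IDs matched the annotation (84.7%); genes of at least 1 TPM in 3 libraries were tested with limma 3.58.1 in R 4.3.3 on log2(TPM + 1), and a fold change on that scale understates changes of low genes. Exon inclusion, a percent computed from the deposited TPM, was tested with limma where the holding and skipping transcripts together reached 1 TPM in every library. Exons with a mean inclusion near either end of the scale were left out. Nothing in the labels says that samples of a wild-type group or of the ES knockout came from separate cultures, so p-values may measure technical spread. Tests were tried on simulated data with known changes first. The rest was run in Python 3.11.15 with pandas 2.3.3, numpy 2.4.6, pysam 0.24.0, scipy 1.17.1 and matplotlib 3.10.9.

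The iCLIP replicate numbers pair an RBM10 library with its IgG control, per the study's design text; the RNA-seq numbers pair nothing by the labels. Named were the 10 positions with the highest lowest count over the RBM10 libraries, the 15 hosts with the most positions, the 10 with the most near 3' splice sites, 5 each for 5' splice sites, exons and small RNA genes, up to 3 a list, and up to 10 called hosts or exons. The positions, gene lists and tests were chosen with earlier results of these data known. One host gene that this rule names is not reported here.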

Additional observations from a re-analysis of the deposited data

Results flagged for a closer look

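In 15 of 102 groups of 4 library values that were looked at, the highest or lowest library lay far from the other 3, by Dixon's test at its 95% level. That level, about 1 group in 20 by chance, holds for continuous values with a normal spread. Many groups here are low counts, and one in which the other 3 libraries are at 0 is always marked. The number of marked groups can therefore not be set against chance. RBM10 library 4, the smallest of its group, was far above the others at U12, with 4.75% of its crosslinks at U12 positions (0.743% to 1.09% in the others), 22363 CPM at base 82980191 (2380 to 4367) and 4475 CPM at base 82980190 (843 to 990). It was also far above at 23039705 on chromosome 10, with 14611 CPM (578 to 1131). RBM10 library 3 was low in intergenic crosslinks at positions chosen in the other libraries, at 4.25% (9.29% to 9.93%).

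IgG library 1 was the far value in 9 groups, all but 1 of them at intronic or other genic positions. It had 10.4 CPM at the positions of Flna (0 in the other IgG libraries) and also 10.4 at those of Col5a1 (0 to 0.452), 12.4 at those of Hspg2 (0 to 1.36) and 6.22 at those of Pabpn1 (0 to 0.452). At single bases it had 4.15 CPM in Col1a2 (0 to 0.452), 2.07 in Col1a1 and 2.07 in Flna (0 in the others for both) and 5.18 in Thbs1 (0 in the others). At 39985042 on chromosome 17 it had 358 CPM (172 to 202). IgG libraries 3 and 4 have a floor of 29.1 and 19.0 CPM, above all of these gene values, so a 0 there does not show a lower level. Where all the other libraries were at 0, as for Flna and the bases in Col1a1, Flna and Thbs1, the mark follows by construction. IgG library 2 was low at Ddx5, with 6.32 CPM (25.3 to 29.1).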

How the results depend on the processing

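Differences below are RBM10 minus IgG, in points of percent of crosslinks at positions chosen in the other RBM10 libraries, unless said otherwise, and the causes of changes were not tested. With each pair as a replicate block the differences were the same but no class could pass (exact sign-flip p = 0.13 at the least): 2.70 for introns upstream of 3' splice sites, 0.308 downstream of 5' splice sites, 0.587 for other introns, 1.26 for noncoding exons, -0.978 for mitochondrial and -10.4 for intergenic positions. With each listed position counted once these were 1.04, 0.149, 0.383, 0.208, -0.200 and -1.44 and lost the call, while coding and UTR exons (-0.0035) and small RNA genes (-0.659) changed sign. With at least 2 crosslinks in each of the other libraries, other introns lost the call (0.120) and coding and UTR exons gained it (0.0848). With introns and exons of genes only, a setting chosen after seeing the data, the total changed sign to 5.60 and other introns lost the call (0.455). Leaving out a pair leaves 3 against 3, where the smallest p is 0.10, so the calls end by construction; the differences ran from 2.39 to 3.03 (3' splice sites), 0.271 to 0.350 (5' splice sites), 0.519 to 0.627 (other introns), 1.16 to 1.37 (noncoding exons), -1.04 to -0.895 (mitochondrial), -12.2 to -8.14 (intergenic) and -0.654 to 1.07 (small RNA genes, which changed sign without replicate 4).

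The IgG log2 ratio against shifted positions kept its direction under the 9 alternatives run. Of the shares of the recurrent positions against others, base A changed sign when positions were counted once (-3.72), within host genes (-2.07) and within host genes counted once, the second setting chosen after seeing the data (-5.47), and the 5' splice site share did so with at least 2 crosslinks in each library (-0.727) and within host genes (-0.688); the intergenic share is near 0 within host genes by construction (-0.0010 and -0.0011 counted once) and is not counted there, and the other shares kept their direction.

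In RNA-seq, same-numbered samples did not deviate together (correlations -0.11, -0.001 and -0.061 in mandibular and 0.165, -0.135 and 0.039 in ES cells), so the numbers pair nothing. With the number as a replicate block the calls were 0 mandibular genes, 422 ES genes (111 hosts) and 0 ES exons (0 beside a position). Without the filter on low values they were 6 mandibular and 774 ES genes (213 hosts), and with a pseudocount of 0.1, 0 mandibular genes. On the logit scale 3 mandibular and 20 ES exons were called (1 beside a position). At 5 TPM 37 ES exons were called, while the number beside a position stayed close to 3, the number among 11 called at 1 TPM. The share of called ES exons beside a position was thus lower on the logit scale and at 5 TPM, and with the replicate block there was no call to take a share of. Leaving out a library gave 0 to 4 mandibular genes, 0 to 1 mandibular exons, 21 to 3985 ES genes (4 to 1353 hosts) and 0 to 13 ES exons (0 to 1 beside a position). Depth limits what can be said of IgG libraries 3 and 4 and of positions missed in RBM10 library 4.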
